A study of Mus musculus with 15 samples.

Results

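Serpins are a family of proteins best known as protease inhibitors, and 5 of them were followed in mouse prostate epithelial cells: Serpinb5 (maspin), Serpinb2 (plasminogen activator inhibitor 2), Serpine2 (protease nexin 1), Serpinf1 (pigment epithelium-derived factor, PEDF) and Serpinh1 (the collagen chaperone HSP47). The 5 genes were chosen by name, and a gene was measured where a probe set of the array was assigned to it alone. That held for 4 of the 5, each with 1 probe set, among 48 serpin genes and 19938 genes measured in all. Serpine2 was not analysed here.

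RNA was measured on 15 Affymetrix arrays, 3 in each of 5 groups, from epithelial cells of the ventral prostate of FVB mice. In 4 groups the cells had been transformed by an oncogene and grown as stable lines in DMEM with serum: c-myc (Myc), neuT (NeuT, an activated form of the receptor ErbB2), ha-ras (Ras) or v-src (Src). The design text gives 3 lines to each oncogene. The fifth group (control) held untransduced primary cultures in primary culture medium, moved to DMEM with serum for the last night, so that transformation, establishment as a line and medium cannot be told apart in any comparison with control. Values are log2 expression as normalized by the authors, and 1 unit is a doubling. The median over all genes and arrays was 6.47.

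The labels were checked on the transduced genes. Erbb2 was higher in the NeuT arrays than in control (log2 difference 1.70, adjusted p = 4.27e-07 with limma). The Myc-labelled arrays held less Myc than control, 8.78 against 9.70 (adjusted p = 0.00207 with limma), the direction opposite to the label. These are therefore called the arrays labelled Myc throughout, and plots mark them by that label. Myc was also 0.77 lower than control in Ras, and it was 1.26 higher in NeuT and 0.77 higher in Src (adjusted p = 0.00733, 0.000189 and 0.00926 with limma). Src differed from control by 0.05 in the Src arrays (adjusted p = 0.743 with limma), so no rise matched that label either, and Hras was not analysed here. Whether the array's probes read the introduced copies was not tested. Control array 3 stood apart: kidney tubule transcripts were high on it, with Kap at 12.10 against a mean of 4.80 on control arrays 1 and 2, Umod at 11.03 against 5.70, Slc12a1 at 9.76 against 4.54 and Lrp2 at 10.46 against 5.44. All 4 measured serpins were lower on that array than on the other control arrays, Serpinb2 by 0.90, Serpinb5 by 0.67, Serpinh1 by 0.47 and Serpinf1 by 0.16. The comparisons of the 4 members, the list counts and the genes named by the rule given under processing were also computed without it. Correlations, cell type marker counts and means, and genes outside that rule used all arrays only.

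Most serpins trap a protease by offering it a reactive loop, but the members followed here differ in what they do with that fold. Maspin does not behave as a classical protease inhibitor; it is made by normal breast and prostate epithelium, above all by basal and myoepithelial cells, and is known as a tumour suppressor that restrains invasion and motility. Serpinb2 inhibits urokinase and is strongly induced by inflammatory signals. PEDF is secreted and opposes angiogenesis without inhibiting a protease, and HSP47 stays in the endoplasmic reticulum, where it holds newly made procollagen in its triple helix.

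Serpinb5 and Serpinb2 lie in the same cluster of clade B serpins on chromosome 1, and in the Ras arrays they moved in opposite directions. The 250 bases before the annotated start of each are shown for that reason, from RefSeq on GRCm38.p6, both on the plus strand, at chr1:106860925-106861174 for Serpinb5 and chr1:107511173-107511422 for Serpinb2. Capitals mark a match to the TATA box TATAAA, the Sp1 box GGGCGG or the heat shock element GAANNTTC. For Serpinb2, which has 2 starts in the table, the most upstream one was used.
Serpinb5: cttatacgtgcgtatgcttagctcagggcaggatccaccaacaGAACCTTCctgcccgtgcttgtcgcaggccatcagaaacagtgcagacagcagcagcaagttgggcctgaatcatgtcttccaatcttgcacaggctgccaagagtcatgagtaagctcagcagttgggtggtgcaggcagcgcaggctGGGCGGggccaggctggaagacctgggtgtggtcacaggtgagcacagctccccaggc
Serpinb2: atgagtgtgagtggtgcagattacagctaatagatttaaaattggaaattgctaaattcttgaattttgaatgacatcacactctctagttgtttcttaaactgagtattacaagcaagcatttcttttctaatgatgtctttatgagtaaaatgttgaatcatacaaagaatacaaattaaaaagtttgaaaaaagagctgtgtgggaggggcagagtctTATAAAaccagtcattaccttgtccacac

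The windows differ in composition: the Serpinb5 window was 58.8% G and C and the Serpinb2 window 32.4%, where the median of 32851 promoter windows of this length was 52.4%. Serpinb2 had TATAAA with its first base at -29 from the start, a sequence found in 12.4% of all windows on either strand. Serpinb5 had none, and instead held GGGCGG at -58 (in 32.7% of windows) and GAANNTTC at -207 (in 6.69% of windows). Neither window held the AP-1 site TGAGTCA (4.46% of windows), the CRE TGACGTCA (1.55%) or the E-box CACGTG (6.02%). The 4-base ETS core GGAA, left in lower case, is in 93.4% of windows, with 3 copies for Serpinb5 and 1 for Serpinb2; the Serpinb5 copy at -202 lies on the minus strand and overlaps the heat shock element. A match describes these letters and is not evidence of binding.

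Differences were tested with limma over all 15 arrays, with p-values adjusted over 19938 genes, and a gene was called at an adjusted p under 0.05. Against control, 2 of the 4 members were higher in Ras (Serpinb2 and Serpinh1) and 1 lower (Serpinb5), where 13.3% of all genes were called higher and 14.2% lower. In the arrays labelled Myc and in NeuT, 2 of 4 were lower (Serpinf1 and Serpinh1), against 12.7% and 11.6% of all genes, and 0 were higher, at an unadjusted p under 0.05 too, against 15.9% and 15.2%. In Src 1 was higher, Serpinb5, against 14.2%, and 0 were lower, against 12.2% (1 at an unadjusted p under 0.05, Serpinh1). Such shares of 4 genes say little beside these backgrounds, and the sizes below are given gene by gene. The 4 comparisons share the 3 control arrays.

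Between lines, 3 of 4 members were called, in either direction, in each of 5 pairs: the arrays labelled Myc and Ras, NeuT and Ras, Ras and Src, the arrays labelled Myc and Src, and NeuT and Src, where 28.4%, 28.1%, 26.2%, 18.9% and 20.2% of all genes were called. None of the 4 was called between the arrays labelled Myc and NeuT, where 14.9% of genes were, and none had an unadjusted p under 0.05 there either. Serpinf1 was the member that did not pass against Ras, and Serpinb2 the one that did not pass between Src and the arrays labelled Myc or NeuT.

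**Figure D1:**
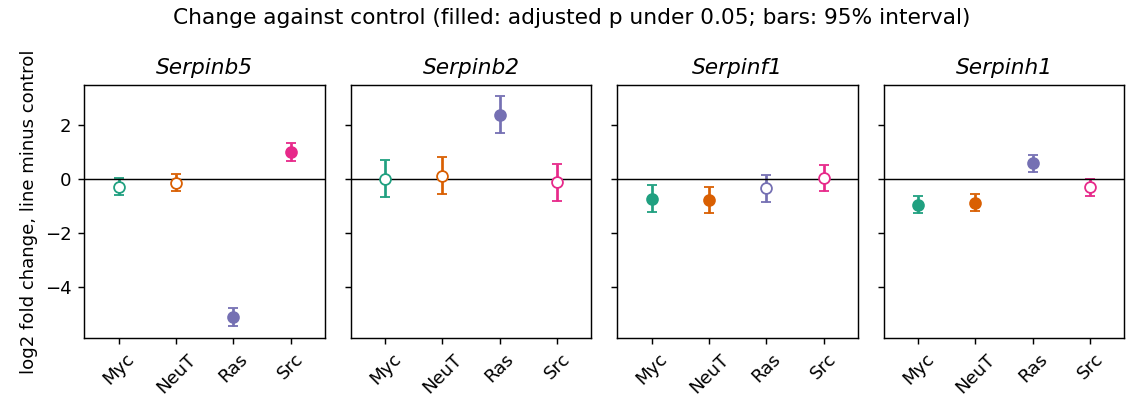
Log2 difference of each line group from control (vertical axis) for the 4 serpins, with 95% intervals from the limma fit; filled points passed an adjusted p of 0.05. Ras shows the widest span, from -5.13 for Serpinb5 to 2.36 for Serpinb2.

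Maspin fell steeply in the Ras lines and rose in the Src lines. Serpinb5 read 4.34, 4.48 and 4.58 on the 3 Ras arrays, 10.69, 10.55 and 10.49 on the Src arrays, 9.33, 9.36 and 9.22 on the arrays labelled Myc and 9.57, 9.52 and 9.26 on the NeuT arrays, against 9.78, 9.85 and 9.15 on the control arrays. All 3 Ras arrays lay below the median level of all genes, every other array lay well above it, and the Src arrays lay above all 3 controls.

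In the Ras lines Serpinb5 averaged 4.47 ± 0.12, against 9.59 ± 0.39 in control (SD, n = 3 each), a log2 difference of -5.13 ± 0.15 (SE; 34.9-fold lower; adjusted p = 1.29e-11 with limma). The table gives no detection calls, and the Ras mean lies near the low end of the array, with 9.64% of genes at or below it; the fold changes against Ras are as fitted, and whether the array's floor limits them was not tested. In the Src lines it averaged 10.58 ± 0.10, which was 0.98 ± 0.15 above control (SE; 1.98-fold; adjusted p = 0.00028 with limma). Without control array 3 these differences were -5.35 and 0.76, both still called.

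The arrays labelled Myc (9.30 ± 0.08) and the NeuT arrays (9.45 ± 0.17) did not pass against control (log2 differences -0.29 and -0.14; adjusted p = 0.191 and 0.579 with limma), and both overlapped the control range. That outcome rested on control array 3, the lowest of the controls for Serpinb5. Without it the differences were -0.51 (adjusted p = 0.00191) and -0.36 (adjusted p = 0.0205), and both passed.

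From high to low, the order of Serpinb5 was Src, control, NeuT, the arrays labelled Myc and Ras. Src was separated from control and Ras from every other group by the test, and the 3 groups between were not separated from each other as neighbours. Between lines, where all cells were established and grown in the same medium, Ras stood 6.11 below Src (69.1-fold; adjusted p = 3.35e-12 with limma), and NeuT and the arrays labelled Myc stood 4.98 and 4.84 above Ras, all against the low Ras level described above. NeuT lay 1.13 below Src (adjusted p = 0.000114), and the arrays labelled Myc lay 1.27 below it (adjusted p = 4.23e-05).

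**Figure D2:**
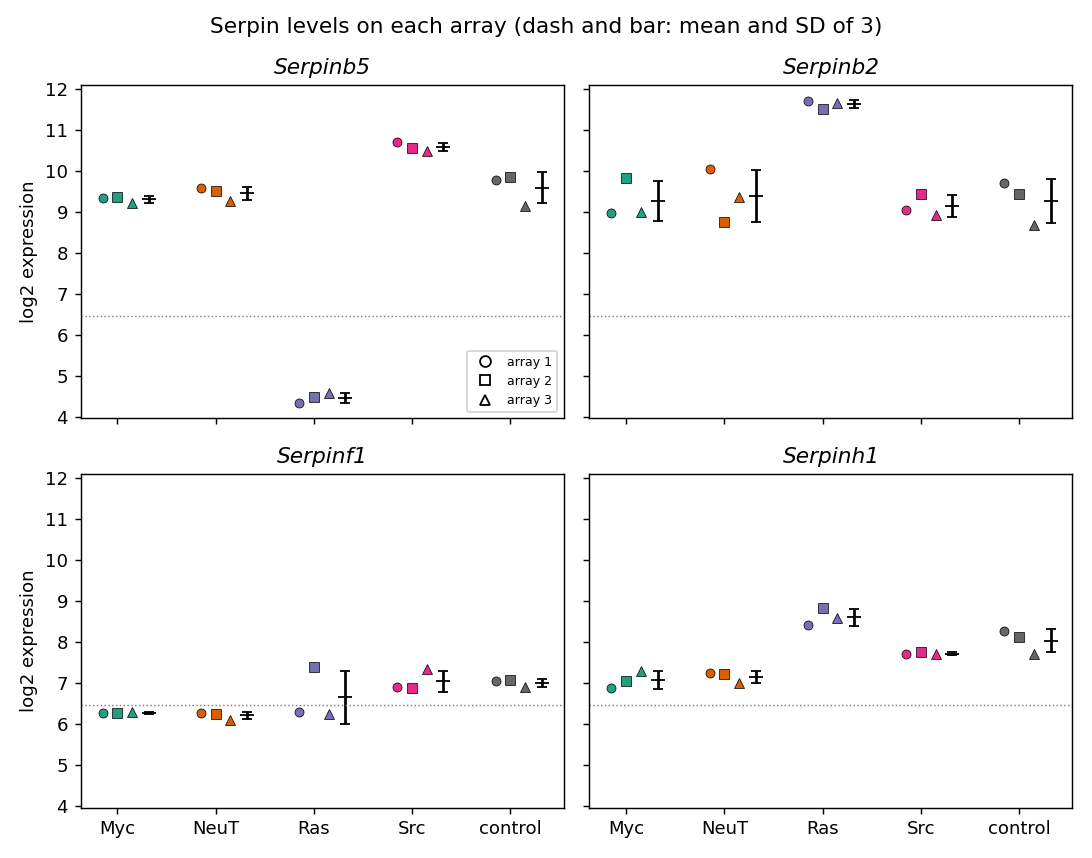
Log2 expression of Serpinb5, Serpinb2, Serpinf1 and Serpinh1 on each array (vertical axis), with the oncogene groups and then control along the horizontal axis; symbols are arrays 1 to 3, dashes with bars are means and SDs, and the dotted line is the median of all genes, 6.47. The 3 Ras arrays sit near 4.47 for Serpinb5 and near 11.62 for Serpinb2, apart from every other array.

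Other genes of epithelial identity moved with Serpinb5 in Ras, and their part in the result was not tested. Epcam, an epithelial adhesion molecule, stood at 4.44 in Ras against 9.67 in control, and Cdh1 (E-cadherin) at 5.91 against 11.16. Of 8 basal epithelial markers, 7 were lower in Ras and 0 higher, and their mean per array was 6.32 to 6.52 in Ras, 9.91 to 10.13 in Src, 7.07 to 7.13 in NeuT and 7.94 to 8.08 in the arrays labelled Myc, against 9.63 to 10.19 in control. Of 5 measured luminal markers, 4 were lower in Ras and 0 higher, Krt8 by 5.29. Their mean per array was 6.27 to 7.10 in Ras, against 9.63 to 9.78 in control. In Src and in the arrays labelled Myc 3 of these 5 were lower. In NeuT 1 was lower, and Krt8 stood at -0.03, not called. Serpinb5 did not follow all basal markers everywhere. In NeuT 6 of the 8 basal markers were lower, Krt5 (a basal keratin) the most, at 5.26 below control on the log2 scale. Itgb4 and Itga6 stood 0.37 and 0.20 above control there, not called. Serpinb5 was 0.14 below control in NeuT, not called with all arrays but called without control array 3. Of all genes, 14.2% were called lower in Ras, 11.6% in NeuT, 12.2% in Src and 12.7% in the arrays labelled Myc. In bulk RNA, fewer cells of a type and less RNA per cell cannot be told apart.

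Markers of other cell types showed no matching rise in Ras for leukocytes, where 0 of 6 passed with limma, or at an unadjusted p under 0.05 (5.61 to 5.75 in Ras, 5.69 to 5.92 in control) and Ptprc, Csf1r, Adgre1 and Itgam were below the median level in every group. Of 6 fibroblast markers, Dcn and Col3a1 were higher in Ras by 1.14 and 0.54 and Pdgfra lower by 0.45. Their array means were 6.43 to 6.81 in Ras and 6.31 to 6.50 in control. Of all genes, 13.3% were called higher in Ras and 14.2% lower.

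The genes whose pattern was most like that of Serpinb5 over the 15 arrays, among 10957 genes reaching the median level in some group, were Perp (Pearson r = 0.990), Grhl2 (r = 0.987) and S100a14 (r = 0.979). The 15 points share the 5 groups, and the Ras arrays are the lowest for each gene; by rank, Rell1 came first (Spearman rho = 0.946) and Perp second. Perp is a component of desmosomes that p53 and p63 induce, Grhl2 is a transcription factor of epithelial differentiation, and S100a14 is a calcium-binding protein.

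Perp read 8.52, 8.01 and 8.41 in Ras against 10.39, 10.41 and 10.11 in control. Grhl2 read 5.64, 5.36 and 5.77 in Ras against 8.46, 8.49 and 7.90 in control. S100a14 read 5.38, 5.33 and 5.17 in Ras against 11.06, 11.11 and 10.72 in control. As for Serpinb5, all 3 genes were lowest on the Ras arrays and lower on control array 3 than on the other controls. They were picked for their likeness to Serpinb5 on these same arrays, so the shared pattern follows from that choice.

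**Figure D3:**
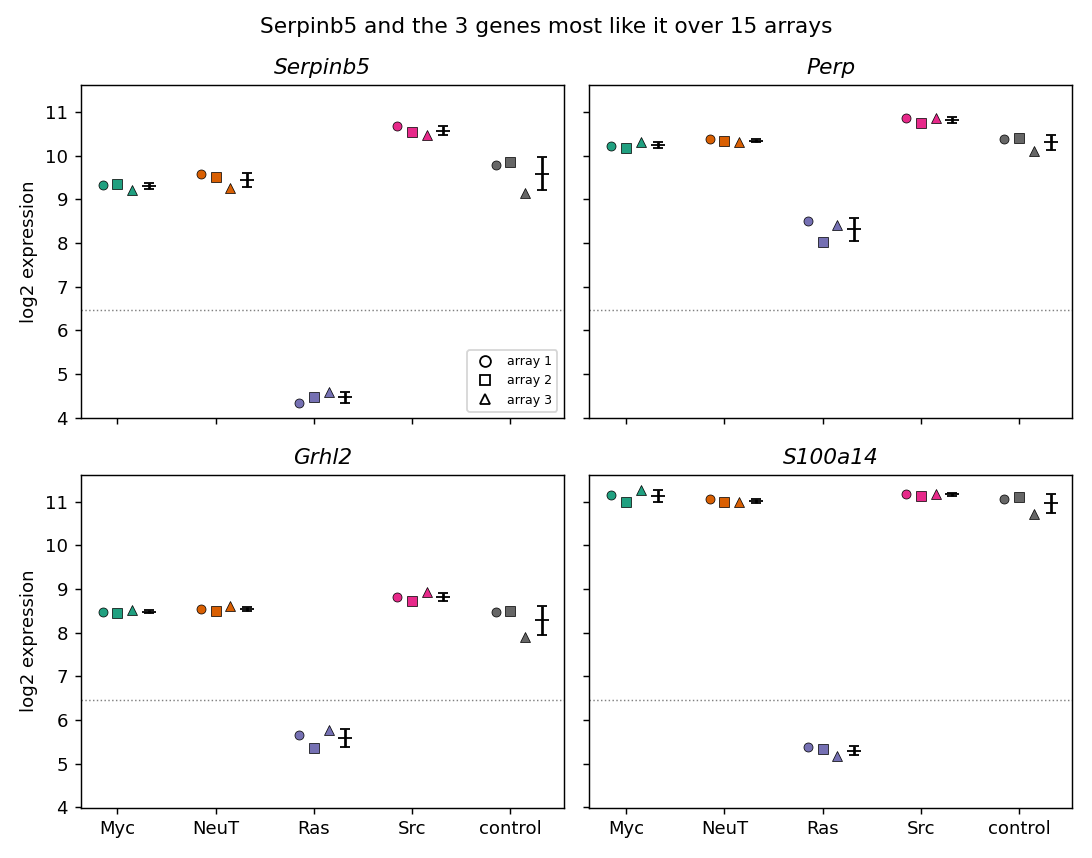
Log2 expression per array (vertical axis) of Serpinb5 and of the 3 genes with the highest Pearson r to it, by group, drawn as in the plot of the 4 serpins. In each panel the Ras arrays lie below all others, from 5.17 to 5.38 for S100a14.

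Of the factors linked to maspin in the literature, 10 of 13 listed genes were measured. In Ras 1 was higher and 7 lower than control (median log2 difference -0.56, beside 0.02 over all genes). Counts were 2 and 4 in the arrays labelled Myc, 1 and 5 in NeuT, and 2 and 3 in Src. Each comparison with control called 11.6% to 15.9% of all genes in each direction. Ehf, an epithelial ETS factor, averaged 6.02 in Ras against 9.24 in control (-3.23; adjusted p = 6.22e-10 with limma), and was 0.42 to 1.08 lower in the other lines. Trp63 (p63), the master factor of basal epithelium and also among the basal markers above, averaged 9.58 in Src, 6.20 in Ras, 6.05 in the arrays labelled Myc and 6.19 in NeuT, against 7.85 in control, all called. Its direction matched that of Serpinb5 in all 4 groups, but the sizes differed. In NeuT and the arrays labelled Myc, Trp63 was 1.66 and 1.80 lower, while Serpinb5 was 0.14 and 0.29 lower. Those Serpinb5 differences were not called with all arrays and were called without control array 3. Dnmt1, the maintenance DNA methyltransferase, was higher in all 4 groups of lines, by 0.94 to 1.34. The other listed DNA methyltransferases did not share this. Dnmt3a was lower in NeuT, Ras and Src, by 0.53 to 0.86, all called. Dnmt3b was 0.41 lower in Ras and 0.45 higher in the arrays labelled Myc, both called.

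Serpinb2 rose in the Ras lines and was called in no other group. It read 11.71, 11.52 and 11.65 on the Ras arrays, 8.96, 9.83 and 9.00 on the arrays labelled Myc, 10.03, 8.75 and 9.37 on the NeuT arrays and 9.05, 9.44 and 8.93 on the Src arrays, against 9.71, 9.43 and 8.67 on the control arrays. The 3 Ras arrays lay above all 12 others, which overlapped freely. Ras averaged 11.62 ± 0.10 against 9.27 ± 0.54 in control (SD, n = 3 each), a log2 difference of 2.36 ± 0.32 (SE; 5.12-fold; adjusted p = 5.6e-05 with limma), and 2.06 without control array 3.

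In the Myc-labelled, NeuT and Src arrays the difference of Serpinb2 from control was -0.0042, 0.12 and -0.13, and none passed. With an SE of 0.32 these comparisons were coarse, the 95% interval for Src running from -0.81 to 0.56. The arrays labelled Myc and the NeuT arrays lay 2.36 and 2.24 below Ras, and Ras lay 2.48 above Src (adjusted p = 6.05e-05, 9.55e-05 and 4.47e-05 with limma). The groups other than Ras were not separated from their neighbours in the order NeuT, control, arrays labelled Myc and Src.

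The target of Serpinb2, urokinase, moved the other way. Plau, named after its values were seen, averaged 8.04 in Ras against 9.88 in control (-1.83 ± 0.25 SE; adjusted p = 6.08e-05 with limma) and was not called in the other groups. Its receptor Plaur was 0.58 higher in Ras and tissue plasminogen activator Plat 0.50 higher (adjusted p = 0.00461 and 0.0317), both also named after their values were seen.

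Each comparison with control called 11.6% to 15.9% of all genes in each direction. Among 16 measured serine proteases and receptors (17 listed), 5 were higher and 8 lower in Ras than in control, with a median of -0.43. In the arrays labelled Myc 0 were higher and 8 lower, in NeuT 0 and 7 (1 higher in each at an unadjusted p under 0.05), and in Src 2 and 7, with medians of -0.53, -0.40 and -0.38, beside 0.02 to 0.06 over all genes in the 4 comparisons. F3 (tissue factor, which starts coagulation) fell in all 4 groups (differences of -3.17 to -3.70), and so did the membrane protease Tmprss2 (-2.85 to -3.14). St14 (matriptase) was 3.83 lower in Ras and 0.54 to 0.83 lower in the other groups.

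Of 16 measured NF-kB and inflammatory genes (17 listed), 5 were higher and 6 lower in Ras and 6 and 1 in Src. Counts were 6 and 5 in NeuT and 5 and 5 in the arrays labelled Myc. Shares of all genes called higher and lower were 13.3% and 14.2% in Ras and 14.2% and 12.2% in Src. They were 15.2% and 11.6% in NeuT and 15.9% and 12.7% in the arrays labelled Myc. Serpinb2 shared its Ras rise with the chemokines Ccl2, at 11.96 in Ras against 7.71 in control (4.25 higher), and Ccl20, at 9.07 against 6.22 (2.84 higher). Ccl2 was also 2.61 higher in Src, where Serpinb2 did not pass. The cytokine Il1a went the other way, 1.19 lower in Ras and 4.96 to 5.49 higher in the other 3 groups of lines.

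The patterns nearest to Serpinb2 were those of Ccdc88a (girdin, an actin-binding protein; Pearson r = 0.958), Cnpy4 (r = 0.958) and Htr2a (a serotonin receptor; r = 0.943), each highest in Ras. Over the 15 arrays Serpinb2 and Serpinb5 had a Pearson r of -0.904 but a Spearman rho of -0.325 (n = 15 arrays, which share the 5 groups), the Ras arrays lying at opposite ends for the pair.

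Around Serpinb5 and Serpinb2 the chromosome 1 cluster read mostly low. In RefSeq order it runs over 12 consecutive protein-coding clade B genes, Serpinb5 at one end and Serpinb8 at the other, and 11 had a probe set of their own. Of these, 7 never reached the median level of all genes in any group (group means of 3.07 to 4.03), and the 4 that did were Serpinb5, Serpinb2, Serpinb10 and Serpinb8. Serpinb10, next to Serpinb2, read 8.59, 8.84 and 8.50 in Src against 4.96, 4.75 and 4.10 in control (4.04 higher as fitted; adjusted p = 4.22e-09 with limma), its control mean of 4.60 also lying low on the array, and was 0.65 to 0.76 lower in the other lines, at a level below the median. Serpinb8 averaged 8.07 in Ras, 7.50 in NeuT and 7.01 in the arrays labelled Myc, against 8.56 in control, all called lower, and 8.85 in Src, not called.

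**Figure D4:**
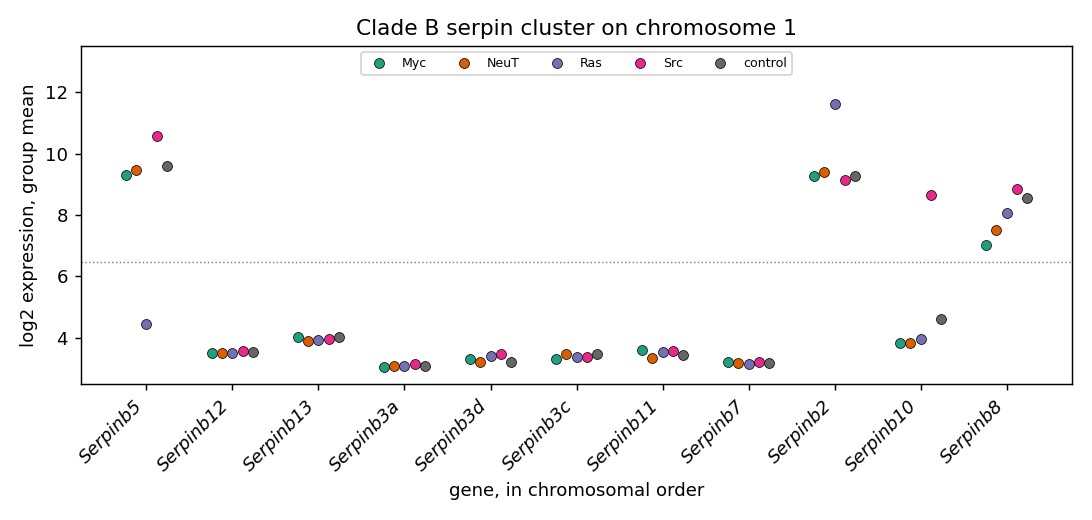
Group means of log2 expression (vertical axis) of the 11 measured clade B serpins of the chromosome 1 cluster, in chromosomal order along the horizontal axis with no distances drawn; colours are the groups and the dotted line is the median of all genes, 6.47. Serpinb5 is low in Ras at 4.47, Serpinb2 is high in Ras at 11.62 and Serpinb10 is high in Src at 8.64.

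Serpinh1 followed an order of its own, highest in Ras and lowest in the arrays labelled Myc and NeuT. It read 8.41, 8.83 and 8.59 on the Ras arrays, 7.70, 7.76 and 7.70 on the Src arrays, 6.88, 7.06 and 7.31 on the arrays labelled Myc and 7.24, 7.23 and 7.00 on the NeuT arrays, against 8.27, 8.12 and 7.72 on the control arrays. The arrays labelled Myc and the NeuT arrays lay below all controls and the Ras arrays above them, while the Src arrays overlapped control.

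Serpinh1 averaged 7.08 ± 0.22 in the arrays labelled Myc and 7.15 ± 0.14 in NeuT, against 8.04 ± 0.28 in control (SD, n = 3 each), differences of -0.96 and -0.88 (SE 0.15 each; adjusted p = 0.000166 and 0.000355 with limma) that became -1.11 and -1.04 without control array 3. In Ras it averaged 8.61 ± 0.21, a rise of 0.57 (1.49-fold; adjusted p = 0.00842) that held without control array 3 (0.42; adjusted p = 0.0306) and missed the threshold when only the Ras and control arrays were fitted (adjusted p = 0.0658). Src, at 7.72 ± 0.03, was 0.32 below control (adjusted p = 0.126) and was called only without control array 3 (-0.48; adjusted p = 0.0165) or with arrays weighted. Between lines, the arrays labelled Myc lay 1.53 and NeuT 1.46 below Ras (adjusted p = 2.46e-06 and 3.96e-06 with limma), and Ras lay 0.89 above Src (adjusted p = 0.000374). Against Src, the arrays labelled Myc and NeuT lay 0.64 and 0.57 lower (adjusted p = 0.00663 and 0.0131), the second of which missed the threshold without NeuT array 3 (adjusted p = 0.0656), and they were not separated from each other.

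HSP47 is a collagen chaperone, and of 26 measured genes of collagens and collagen folding (27 listed, among them the fibroblast markers Col1a1, Col1a2 and Col3a1), 7 were higher and 1 lower in Ras than in control (median 0.16). The counts were 2 and 7 in the arrays labelled Myc (median -0.06), 3 and 5 in NeuT (median -0.04) and 3 and 4 in Src (median -0.02). Beside these, 11.6% to 15.9% of all genes were called in each direction in each comparison with control. Without control array 3 the Ras counts were 5 and 1, and the medians were 0.08 in Ras, -0.07 in Src, -0.08 in NeuT and -0.10 in the arrays labelled Myc. With all arrays, Col3a1 was the only collagen chain called higher in Ras, by 0.54, and Col17a1 the only gene of the list called lower, by 0.80. Col1a1 and Col1a2 stood at -0.09 and -0.08 there, not called. Pcolce, which enhances procollagen processing, averaged 9.93 in Ras against 7.24 in control, a difference of 2.69 (adjusted p = 8.91e-08 with limma). P4ha1, a collagen prolyl hydroxylase, was 1.80 higher in Ras, 1.08 in Src and 0.86 in NeuT. The matrix protein Sparc was 2.64 lower in the arrays labelled Myc and 1.65 lower in NeuT, and stood 0.19 from control in Ras, not called. Of 5 smooth muscle markers, 3 were lower in each group of lines than in control, and their mean per array was 5.78 to 6.59 in Ras, 5.84 to 5.92 in the arrays labelled Myc, 5.87 to 5.95 in NeuT and 6.35 to 6.49 in Src, against 7.48 to 7.94 in control; their part in these results was not tested.

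HSP47 is also a heat shock protein, and 18 of 21 listed heat shock and endoplasmic reticulum chaperone genes were measured. In Ras 6 were higher and 2 lower than control, in the arrays labelled Myc 5 and 4, in NeuT 4 and 4, and in Src 5 and 3. Beside these, 11.6% to 15.9% of all genes were called in each direction in each comparison. The medians of the list lay between -0.02 and 0.14, and between -0.10 and 0.06 without control array 3. Hspb1 (HSP27) was lower in all 4 groups, by 3.11 in Ras and 2.54 in the arrays labelled Myc, and by 0.75 in NeuT and 0.94 in Src. Cryab, a small heat shock protein, was 2.74 lower in Src, 1.71 lower in the arrays labelled Myc and 1.38 lower in NeuT, and Bag3, a co-chaperone, was 0.67 lower in the arrays labelled Myc and 0.43 higher in NeuT. The 3 patterns nearest to Serpinh1 were those of Rab7b (an endosomal GTPase; Pearson r = 0.964), Mbd2 (a reader of methylated DNA; r = 0.955) and Esd (r = 0.950).

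Serpinf1 was lower in the arrays labelled Myc and in NeuT, and its group means all lay within 0.6 of the median of all genes. It read 6.26, 6.26 and 6.30 on the arrays labelled Myc, 6.28, 6.26 and 6.11 on the NeuT arrays, 6.30, 7.40 and 6.26 on the Ras arrays and 6.92, 6.88 and 7.34 on the Src arrays, against 7.05, 7.08 and 6.91 on the control arrays. The arrays labelled Myc and the NeuT arrays lay below every control, Src overlapped control, and in Ras array 2 was above all controls while arrays 1 and 3 were below them.

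In the arrays labelled Myc Serpinf1 averaged 6.28 ± 0.02 and in NeuT 6.21 ± 0.09, against 7.01 ± 0.09 in control (SD, n = 3 each), lower by 0.73 and 0.80 on the log2 scale (SE 0.23 each; adjusted p = 0.0252 and 0.0171 with limma). Without control array 3 both held (-0.79 and -0.85). The call in the arrays labelled Myc was lost without control array 1, control array 2 or any 1 array labelled Myc, and the NeuT call without control array 2 or NeuT array 3, at adjusted p-values of 0.0503 to 0.0675. Ras was 0.36 below control (adjusted p = 0.281), and without Ras array 2 it was 0.73 below and passed (adjusted p = 0.000516). Ras array 2 also had the highest mean of 6 fibroblast markers of the Ras arrays, 6.81 against 6.58 and 6.43, and of 5 smooth muscle markers, 6.59 against 6.04 and 5.78; their part in its Serpinf1 value was not tested. Src stood 0.03 from control (adjusted p = 0.925). Against Src, the arrays labelled Myc lay 0.77 and NeuT 0.83 lower (adjusted p = 0.0286 and 0.0182), and both calls were lost without Src array 3 (adjusted p = 0.124 and 0.0834); the first was also lost without Src array 1 or any 1 array labelled Myc, and the second without NeuT array 3. From high to low the groups ran Src, control, Ras, arrays labelled Myc and NeuT, with no neighbours separated by the test.

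The 8 genes of PEDF receptors and of the growth factor it opposes were all measured, with 1 higher and 2 lower in Ras, 0 and 2 in Src, 0 and 2 in NeuT (0 and 1 higher at an unadjusted p under 0.05) and 1 and 3 in the arrays labelled Myc, and medians of -0.20, -0.15, 0.08 and -0.25. Without control array 3 those medians were -0.12, -0.09, 0.14 and 0.05, so the sign in the arrays labelled Myc rested on that array. Each comparison with control called 11.6% to 15.9% of all genes in each direction. Plxdc2, a PEDF receptor, was lower in all 4 groups, by 2.98 to 3.18. These falls include its high value on control array 3, 9.55 against a mean of 8.26 on the other controls. Pnpla2, a lipase that also binds PEDF, was lower by 1.18 in Src, 0.71 in Ras and 0.62 in the arrays labelled Myc. Flt1, a VEGF receptor, was 1.67 higher in Ras. Nearest in pattern to Serpinf1 were Hs6st2 (a heparan sulfate sulfotransferase; Pearson r = 0.902), Crb2 (r = 0.864) and Vezf1 (r = 0.856), looser matches than for the other 3 members.

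Of the other 44 serpin genes, 14 were called in at least 1 comparison with control (31.8%, beside 51.1% of all genes), and 12 reached the median level in some group. The counts higher and lower were 3 and 5 in Ras, 5 and 2 in Src, 1 and 7 in NeuT and 2 and 8 in the arrays labelled Myc. Their medians ran from -0.03 to 0.08. Beside these counts, 11.6% to 15.9% of all genes were called in each direction in each comparison. Among the 9 that were both called and reached the median level, the 8 with the widest changes were mostly clade B serpins, intracellular inhibitors, of which Serpinb1, Serpinb6 and Serpinb9 have several close copies in the mouse, so their values are uncertain where a probe set could read a copy.

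Serpinb9b showed the widest falls. It read 10.74, 9.39 and 10.29 in Ras, 5.92, 5.98 and 6.15 in Src, 6.24, 5.82 and 6.01 in NeuT and 6.58, 6.81 and 6.72 in the arrays labelled Myc, against 10.17, 10.09 and 9.27 in control. Ras overlapped control while the other 3 groups lay far below both, with differences from control of -3.83 in Src, -3.82 in NeuT and -3.14 in the arrays labelled Myc. Serpinb1a was 2.47 and 2.43 lower in the Myc-labelled and NeuT arrays, Serpinb9 1.48 and 2.89 lower, and Serpinb1b 1.52 and 1.24 lower. Serpinb1b was also 1.23 lower in Ras and 0.86 higher in Src (adjusted p = 0.0013 and 0.0173 with limma). In Src it read 7.38, 6.24 and 7.41, with array 2 inside the control range of 5.88 to 6.41. Serpinb6b was 2.95 lower in the arrays labelled Myc and 1.39 lower in Ras (adjusted p = 0.0398 in Ras with limma). Its Ras arrays read 9.01, 7.28 and 9.73 and overlapped control. Serpina3n, a secreted inhibitor induced in inflammation, was 0.78 higher in Ras. Serpinb9 in Ras and Serpinb6b in NeuT missed the threshold with all arrays and passed without control array 3 (adjusted p = 0.044 and 0.0456).

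**Figure D5:**
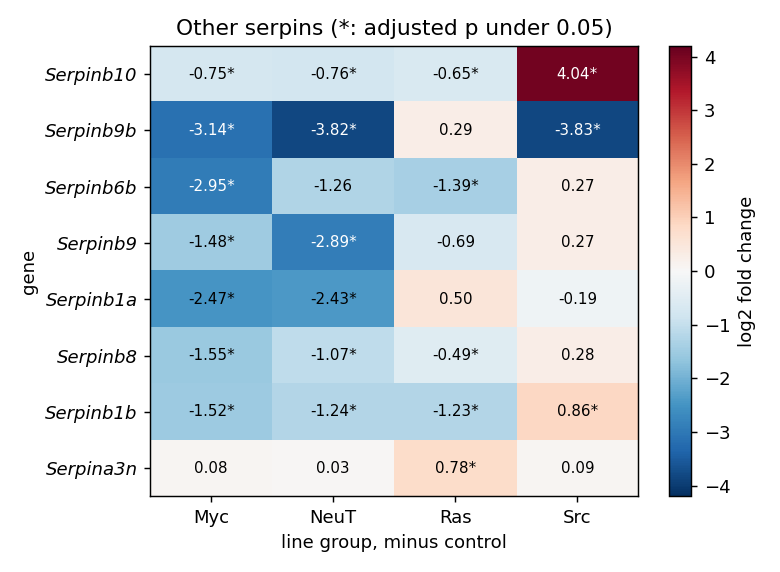
Log2 difference from control (colour and printed value) of 8 other serpins, those with the widest change among the 9 both called and reaching the median level, in rows, for the Myc, NeuT, Ras and Src groups in columns; an asterisk marks an adjusted p under 0.05. Serpinb10 is 4.04 higher in Src, and Serpinb9b is lower in 3 groups and 0.29 from control in Ras.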

How the data were processed

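RNA from 15 cultures was measured on Affymetrix arrays. The deposited values are on a log2 scale, normalized by the authors; the submitters' processing notes name RMA and, with its version 1.1, Affymetrix Expression Console; other settings and the build were not given in the sources used. The table held 35556 probe sets: 21789 with 1 gene, 1621 with several and 12146 with none. A gene took its brightest single-gene probe set. No filter on low values was applied. One mean per group was fitted over all 15 arrays with limma 3.58.1 in R 4.3.3 (two-sided, Benjamini-Hochberg over 19938 genes, no fold minimum). The fit was tested on simulated data with 200 changed genes. Labels name replicates and the design text separate lines; how control cultures were separated is not stated, so p-values measure the spread between these arrays. Same-numbered arrays were not paired (correlations of deviations -0.0846 to 0.12). Beyond the 5 members, the text names, of other serpins called in a comparison with control and reaching the median level, the 8 with the widest change, and of each other list the 3 with the smallest p. Outside that rule it also names Plau, Plaur, Plat, Dnmt3a, Dnmt3b, Col1a1, Col1a2, Col3a1 and Col17a1, with their values known. Members and lists were chosen with earlier results of these data known. Promoter windows came from RefSeq (GRCm38.p6). Precision is limited by 3 arrays a group.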

Additional observations from a re-analysis of the deposited data

Results flagged for a closer look

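Serpinb5 differed from control in opposite directions in 2 groups of lines, lower in Ras and higher in Src. The difference between them (Ras minus Src) was -6.11 on the log2 scale (adjusted p = 3.35e-12 with limma). Serpinh1 was higher than control in Ras and lower in the arrays labelled Myc and in NeuT. Its Ras rise of 0.57 missed the threshold when only the Ras and control arrays were fitted. Between lines, Serpinh1 differed by -1.53 for the arrays labelled Myc minus Ras (adjusted p = 2.46e-06 with limma). For NeuT minus Ras it differed by -1.46 (adjusted p = 3.96e-06 with limma). Both genes were picked for calls in opposite directions against control, so these differences between lines are not separate support.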

How the results depend on the processing

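Of 368 values of a member against control under an alternative, 340 kept direction and side of the threshold, 12 changed sign, 8 gained a call and 8 lost one; of 552 values between lines, these counts were 535, 7, 2 and 8. No value that changed sign was called either way. With arrays weighted, Serpinb5 was called in the arrays labelled Myc (-0.46) and NeuT (-0.34), Serpinf1 in Ras (-0.60) and Serpinh1 in Src (-0.46), and sign changed for Serpinb2 in NeuT (-0.31), Serpinb2 in the arrays labelled Myc minus NeuT (0.12) and Serpinf1 in Src (-0.00156). Median centring turned Serpinb2 in the arrays labelled Myc to 0.049. With only the groups compared in the fit, Serpinh1 in Ras stayed at 0.57 with an adjusted p of 0.0658, and 3567 genes were called in Ras, against 5469.

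Leaving out each array in turn gave, against control, ranges for Serpinb5 of -0.51 to -0.16 in the arrays labelled Myc and -0.36 to -0.015 in NeuT. For Serpinb2 they were -0.30 to 0.21 in the arrays labelled Myc, -0.21 to 0.43 in NeuT and -0.42 to 0.093 in Src. For Serpinf1 they were -0.79 to -0.70 in the arrays labelled Myc, -0.85 to -0.74 in NeuT, -0.73 to -0.16 in Ras and -0.11 to 0.12 in Src, and for Serpinh1 in Src -0.48 to -0.20. Between lines, Serpinb2 (with Myc standing for the arrays so labelled) ranged from -0.43 to 0.20 (Myc minus NeuT), -0.16 to 0.27 (Myc minus Src) and -0.083 to 0.56 (NeuT minus Src), and Serpinh1 from -0.18 to 0.030 (Myc minus NeuT). The cause was not tested for any of these.

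The replicate block changed no call of a member: the Ras differences stayed at -5.13 for Serpinb5 and 2.36 for Serpinb2, and same-numbered arrays shared only a number. List counts moved by over 1.5 times in these cases: other serpins in Ras (8, to 14 with array weights and 4 with only the groups compared) and Src (7, to 4 without dim genes); collagen genes in NeuT (8, to 14) and Src (7, to 11) with array weights; chaperones in Ras (8, to 5) and in the arrays labelled Myc (9, to 5) with only the groups compared, and in NeuT (8, to 5 without NeuT array 2); PEDF-related genes in NeuT (2, to 4 with array weights and 1 without NeuT array 2 or 3 or control array 3); maspin-linked factors in Src (5, to 3 with only the groups compared, or without control array 2, NeuT array 3 or any Src array). Each measured member has 1 probe set, so the choice among probe sets gave no other value.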

Other observations

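The 5 probe sets assigned to several serpin genes at once were left out of the comparisons, and none of them was called against control.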
